A study of Mus musculus with 36 samples.

Results

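The choroid plexus transcripts Ttr, Folr1, Kl, Aqp1, Otx2, Slc4a5, Kcnj13, Clic6 and Sostdc1 were followed through 36 libraries of mouse brain RNA. These 9 genes were taken as markers of that tissue and matched by Ensembl identifier. All 9 had a row among the 56980 gene rows of the count table, and all 9 were among the 25601 genes that passed the filter on low counts. The animals were 37 to 45 days old, carried the Ndufs4 knockout (KO, ndufs4-ko in the labels) or were wild type (WT), and received CP2 or vehicle by gavage for 3 days. The Ndufs4 protein is part of complex I of the respiratory chain, which CP2 inhibits. With the letter F or M of the sample titles, genotype and treatment made 8 groups. KO CP2, KO vehicle, WT CP2 and WT vehicle held 5 F libraries each. KO CP2 and WT CP2 held 5 M libraries each, and KO vehicle and WT vehicle held 3 M libraries each. The knockout is not described as limited to any cell type, and the strain and any pooling of animals are not given in the sources used here. Hippocampus and cortex are the regions named in the design text, but the tissue label of all samples is brain. Neither names the choroid plexus, and the labels record nothing on how much of it came with a dissection. Each library is a sample of its own, named here by its title number (L201 and so on). The labels do not state that each came from its own animal, so p-values measure the spread between these samples, which may in part be technical.

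The choroid plexus is a sheet of secretory epithelium around leaky capillaries inside the brain ventricles, and the plexus of the lateral ventricle lies alongside the hippocampus. Its epithelial cells make cerebrospinal fluid by moving ions and water across their apical membrane, and they form a barrier between blood and fluid. They also load the fluid with carrier proteins, hormones and vitamins. The epithelium is continuous with the ependyma, the ciliated lining of the ventricle.

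Gene counts summed to between 4.61e+07 and 8.86e+07 per library (median 5.47e+07). Ndufs4 itself lay between 27.4 and 39.1 CPM (counts-per-million of gene counts) in the 18 KO libraries and between 38.9 and 62.7 CPM in the 18 WT libraries. It did not overlap between KO and WT within any treatment and letter, so the genotype labels held, although the transcript was not lost. Xist and Ddx3y followed the letters F and M except in L291 (KO CP2 M), which had 47.2 CPM of Xist against at most 0.83 CPM in the other M libraries. L291 held Ddx3y at the level of the other M libraries, and whether it is a mixture of samples was not tested. It enters every result on KO CP2 M. Some of these results are also given without it, most of them with L201 and L298 left out too. The rest are given only with it. Hippocampal marker genes were present in all libraries (summed level 286 to 578 CPM over 12 genes), as were striatal markers (295.6 to 1652 CPM over 10 genes) and thalamic and habenular markers (392 to 1203 CPM over 12 genes). Some of the striatal and thalamic genes are also expressed in cortex and hippocampus. The ependymal list ranged from 36.7 to 170.0 CPM over 15 genes and the meningeal list from 277.2 to 1006 CPM over 15 genes. Retinal and pineal genes, which share Otx2 as a regulator, stayed between 1.18 and 10.8 CPM over 8 genes, and Mlana had a median count of 0.

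Ttr encodes transthyretin, the carrier of thyroid hormone and retinol that the plexus secretes into the fluid. Per kilobase of exon, Ttr had a median level of 865 CPM over the 36 libraries, far above the other members. Clic6, an intracellular chloride channel protein, had 6.78 CPM per kilobase, and Kl had 5.13. Kl encodes klotho, the co-receptor of the hormone FGF23, which is shed into the fluid. The potassium channel Kcnj13 (Kir7.1), which sits on the apical membrane, had 4.87 CPM per kilobase. Sostdc1, a secreted antagonist of BMP and Wnt signals, had 4.41, and Folr1, the folate receptor that carries folate into the fluid, had 3.60. The water channel Aqp1 had 3.37. The homeobox factor Otx2, which is needed to form and maintain the plexus, had 2.12, and the apical sodium bicarbonate cotransporter Slc4a5 had 1.66. Even the lowest counts were well above the counting floor, from 56 counts for Folr1 to 9572 counts for Ttr in the lowest library.

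The upstream sequences of 5 members were found in RefSeq (build GRCm38.p6), in 8 windows of 250 bases before an annotated transcript start. They were searched on both strands for the core of the OTX factors (TAATCC, or GGATTA on the other strand) and for a TATA core (TATAA, or TTATA on the other strand). A run TTATAA counts for the TATA core on both strands. Of 32851 RefSeq promoters of this length, 6.25% held the OTX core and 22.8% the TATA core. Shown are the windows of the 3 members called relative to the others in the fits that follow, and the 1 window of the 8 that held the OTX core, a window of Otx2 itself. Letters in capitals mark the matches, and all are written 5′ to 3′ on the strand of the gene.
Kcnj13, chr1:87394730-87394979, minus strand: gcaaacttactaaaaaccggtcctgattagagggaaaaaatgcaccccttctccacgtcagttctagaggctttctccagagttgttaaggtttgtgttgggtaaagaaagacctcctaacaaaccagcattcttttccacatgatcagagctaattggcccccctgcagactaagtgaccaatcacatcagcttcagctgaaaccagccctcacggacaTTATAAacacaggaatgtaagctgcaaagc
Slc4a5, chr6:83237125-83237374, plus strand: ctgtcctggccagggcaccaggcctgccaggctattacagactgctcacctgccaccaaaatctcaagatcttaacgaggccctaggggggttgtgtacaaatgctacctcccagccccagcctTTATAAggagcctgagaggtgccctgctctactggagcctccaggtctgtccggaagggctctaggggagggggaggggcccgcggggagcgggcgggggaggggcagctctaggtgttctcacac
Kl, chr5:150952357-150952606, plus strand: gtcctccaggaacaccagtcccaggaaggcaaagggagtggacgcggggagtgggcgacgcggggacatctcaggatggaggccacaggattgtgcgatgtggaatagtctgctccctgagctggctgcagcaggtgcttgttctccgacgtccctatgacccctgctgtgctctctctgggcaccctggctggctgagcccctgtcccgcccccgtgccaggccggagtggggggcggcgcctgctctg
Otx2, chr14:48665110-48665359, minus strand: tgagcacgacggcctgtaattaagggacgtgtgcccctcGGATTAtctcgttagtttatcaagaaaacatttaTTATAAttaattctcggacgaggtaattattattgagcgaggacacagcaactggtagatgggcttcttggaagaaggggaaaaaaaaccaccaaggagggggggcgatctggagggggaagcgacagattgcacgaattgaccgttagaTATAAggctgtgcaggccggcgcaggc
The Kcnj13 window had a TATA core 30 bases before the start and a GC content of 45.2%. In Slc4a5 the TATA core lay 126 bases before the start, with 62.8% GC. The Kl window held neither core and had 66.8% GC, and the window of Aqp1 held neither. The Otx2 window held the OTX core 211 bases before the start, with 48.4% GC. These matches describe letters in a window and are not evidence of binding.

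Levels of the members differed widely between libraries of the same group. In KO CP2 F, Ttr had 3251 CPM in L201 but 631, 660, 712 and 565 CPM in L216, L227, L233 and L234. In KO vehicle F it had 1409, 2630, 1588, 1027 and 1191 CPM. So 4 of the 5 KO CP2 F libraries lay below every KO vehicle F library, and the fifth lay above all of them. In WT CP2 F the values were 1065, 2834, 802, 1875 and 953 CPM, and in WT vehicle F they were 2201, 2157, 845, 1479 and 1271 CPM. The 2 wild-type F groups covered much the same range, and the same 4 knockout libraries lay below all 10 of these. Among the M libraries, KO CP2 had 1493, 2370, 2566, 175 and 1806 CPM, the low value being L298, and KO vehicle had 950.0, 543 and 1025 CPM. WT CP2 M had 667, 977, 944, 1736 and 885 CPM, and WT vehicle M had 614, 978 and 781 CPM. Of the 5 KO CP2 M libraries, 4 lay above all 3 KO vehicle M libraries, and L298 lay below every other library of the series.

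By group mean, Ttr ran from 1682 ± 946 CPM (SD, n = 5) in KO CP2 M through 1590 ± 584 in WT vehicle F, then 1569 ± 630 in KO vehicle F, 1506 ± 851 in WT CP2 F, 1164 ± 1168 in KO CP2 F and 1042 ± 406 in WT CP2 M (SD, n = 5 each). It was 840 ± 259.3 CPM (SD, n = 3) in KO vehicle M and 791 ± 182 (SD, n = 3) in WT vehicle M. Every gap between neighbours in this order was smaller than the SD of either group.

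The other members repeated this picture on their own scales. Folr1 group means ran from 6.92 ± 1.98 CPM (SD, n = 3, WT vehicle M) to 13.9 ± 7.97 CPM (SD, n = 5, KO CP2 M). Aqp1 ran from 7.52 ± 1.20 (SD, n = 3, KO vehicle M) to 13.6 ± 7.63 (SD, n = 5, KO CP2 M), and Sostdc1 from 6.26 ± 0.910 to 11.8 ± 6.83 in the same groups. Otx2 ran from 6.06 ± 1.27 to 11.1 ± 4.83 CPM, again between KO vehicle M and KO CP2 M. Clic6 was lowest in KO vehicle M as well (16.6 ± 6.15 CPM, SD, n = 3) and highest in WT vehicle F (38.4 ± 11.2 CPM, SD, n = 5). All 9 members had their lowest value of the series in L298, and 6 of the 9 had their highest in L201. Kl and Kcnj13 were highest in WT CP2 F L240, and Clic6 in KO vehicle F L279. The highest library exceeded the lowest by 5.77 times for Otx2 and 6.84 times for Kcnj13, by 10.9 to 20.2 times for Kl, Clic6, Sostdc1, Ttr and Aqp1, and by 25.1 and 25.6 times for Folr1 and Slc4a5.

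**Figure D1:**
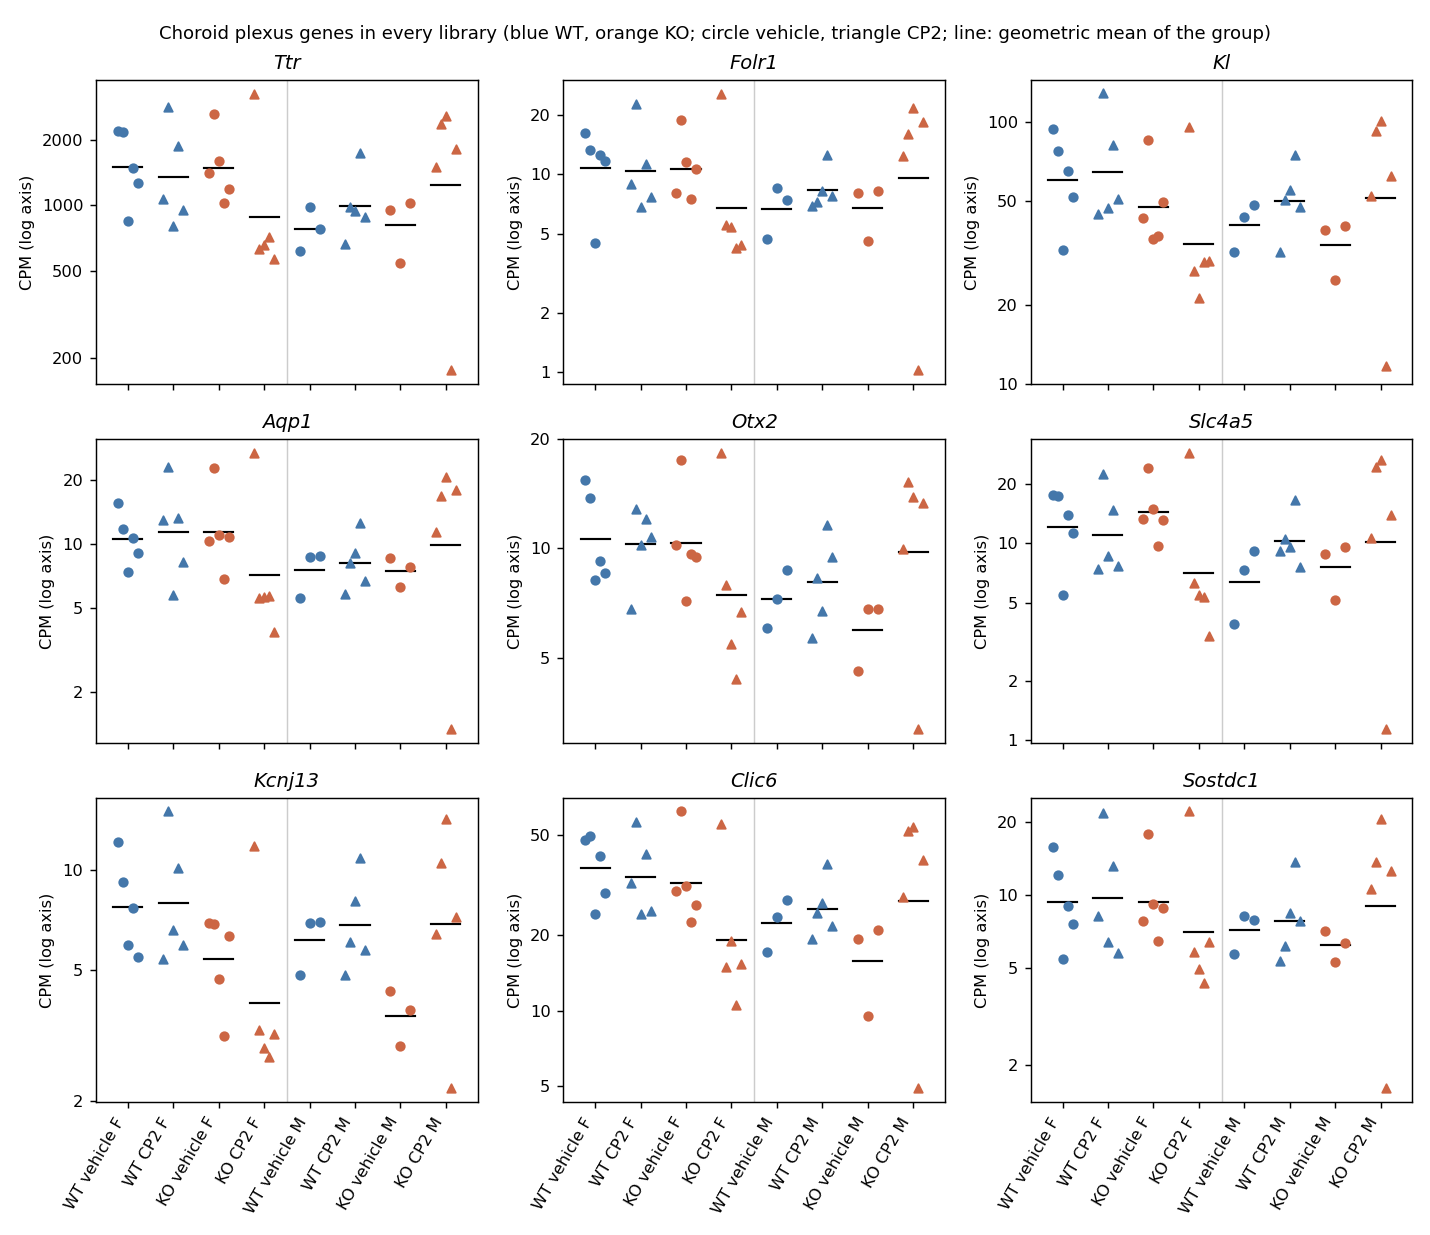
Level of each of the 9 choroid plexus genes in every library, in CPM on a log axis, by group, with 1 point per library. L201 is high and L298 low in all panels. Groups of the same letter that differ in genotype or treatment alone overlap, except KO and WT with vehicle in M for Kcnj13.

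Most of the spread lay inside the groups. The pooled SD of log2 CPM within groups was 0.57 for Otx2, 0.65 for Kcnj13, 0.72 for Kl, 0.76 for Clic6, 0.80 for Sostdc1, 0.87 for both Ttr and Aqp1, 0.93 for Folr1 and 0.96 for Slc4a5. The median over all tested genes was 0.37. Genes within 2-fold of the CPM of Ttr had a median within-group SD of 0.12, and those near Kcnj13 had 0.25, so the members varied more than genes at like levels. The 8 groups held between 8.03% (Sostdc1) and 31.0% (Kcnj13) of a member's sum of squares, with a median of 17.0%, against a median of 30.9% over all tested genes. Kcnj13 (31.0%), Clic6 (24.5%) and Otx2 (21.8%) held the largest group shares, and Folr1 (10.4%), Aqp1 (10.6%) and Sostdc1 the smallest. Means of few libraries differ even without any group effect, and these shares are not corrected for that. They are therefore not a measure of a group effect.

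This within-group spread was shared. After the group means were removed, all 9 members lay on the same side of their group mean in 21 of 36 libraries, above it in 12 and below it in 9, and at least 8 did so in 31. The mean deviation of the 9 genes reached 1.69 on the log2 scale in L201, 1.04 in KO CP2 M L292 and 0.93 in WT CP2 F L240. Over the 36 pairs of members, Pearson correlations of these deviations ran from 0.815 to 0.968 (median 0.937), and a single axis held 94.2% of the variance. With Ttr as the reference, r was between 0.962 and 0.968 for Folr1, Kl, Aqp1, Slc4a5, Clic6 and Sostdc1 (Spearman's rho 0.916 to 0.945, n = 36). Kcnj13 had r = 0.914 (rho 0.852) and Otx2 r = 0.843 (rho 0.711). The permutation p within groups was 1e-05 for Pearson's r in all but Otx2 (4e-05), and 1e-05 is the smallest that 100000 resamples can give (1.14e-05 after adjustment over 8 relations). Without L298 and L201, the libraries farthest from the median of Ttr, r stayed between 0.927 and 0.932 for those 6, with 0.859 for Kcnj13 and 0.690 for Otx2 (n = 34). It ran from 0.787 to 0.964 over the 20 F libraries and from 0.897 to 0.984 over the 16 M libraries. No sequencing, dissection or library batch is given in the labels, so the relation could not be recomputed within one. In RNA from bulk tissue, fewer plexus cells and less RNA per cell cannot be told apart.

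**Figure D2:**
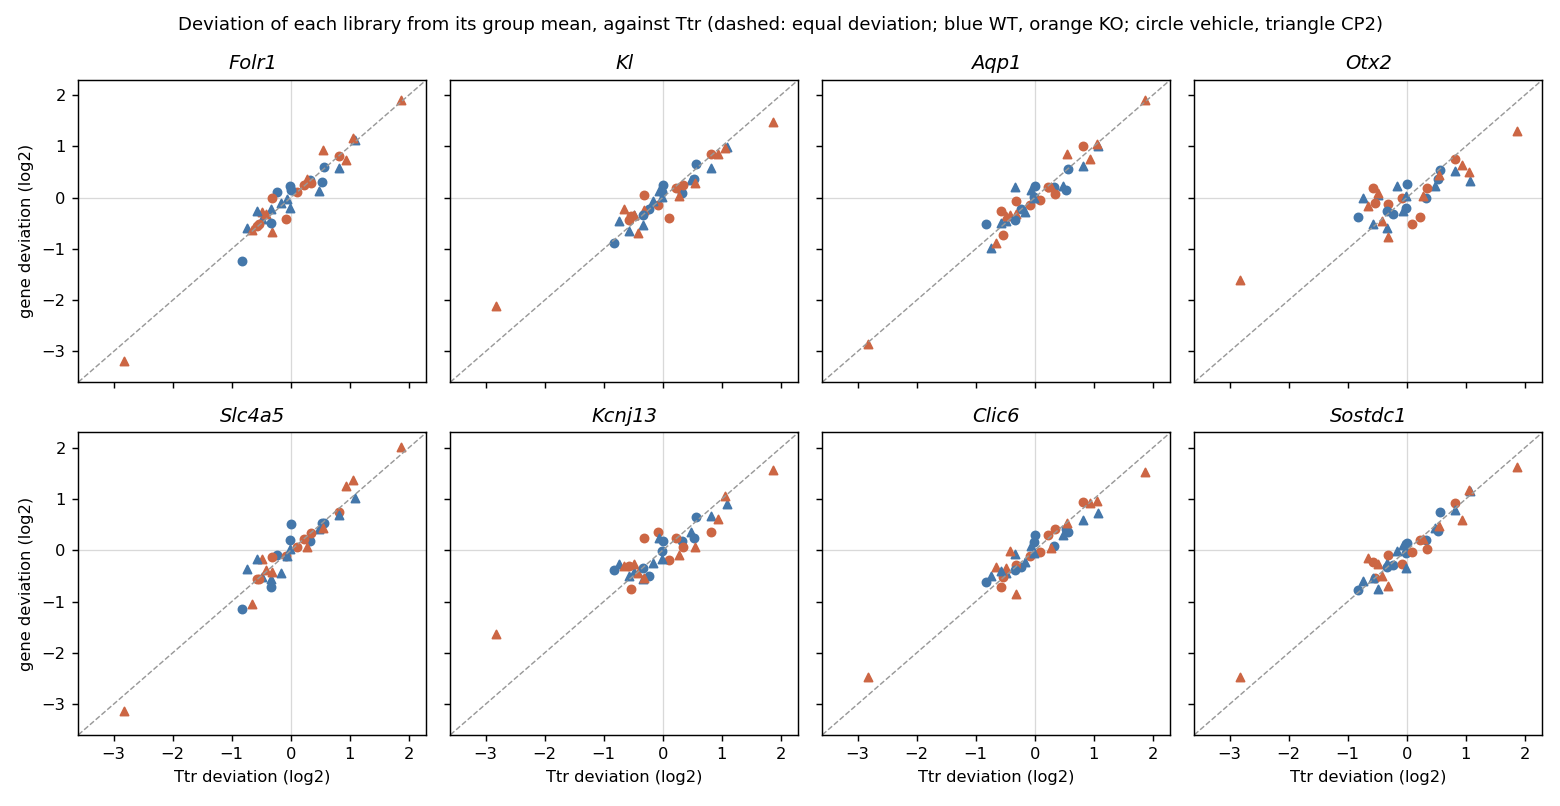
Deviation of each library from its group mean in log2 CPM, for each of 8 members (vertical) against Ttr (horizontal), with 1 point per library. The points rise with Ttr, less steeply than the dashed line of equal deviation for Otx2, Kcnj13 and Kl. L298 (bottom left) and L201 (top right) lie farthest out.

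Marker lists of neighbouring tissues tracked this deviation to different degrees. The summed level of 32 other choroid plexus epithelium genes correlated with the members at 0.976 within groups, and that of the ependymal list at 0.623. Red cell genes had 0.207, endothelial and mural genes 0.181, thalamic and habenular genes 0.152, striatal genes 0.027, meningeal genes 0.016, retinal and pineal genes -0.028 and hippocampal genes -0.039. These are correlations over 36 libraries that share their depth scaling, given as description. Thus the summed level of the other plexus genes moved closely with the members from library to library, and the ependymal list did so in part. Enpp2 weighs heavily in the plexus sum, with a median of 696 CPM against 1143 CPM for the summed list. Single genes of that list correlated with the members over all 36 libraries from 0.158 (Rbp4) to 0.971 (F5). The lists of meninges, vessels and the neuronal regions measured did not follow the members closely.

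Against this spread, edgeR's quasi-likelihood test called 0 of the 9 members in all 20 comparisons and in the test across all groups, and so did DESeq2. In the test for any difference among the 8 groups 0 of 9 passed, with adjusted p from 0.321 (Kcnj13) to 0.846 (Sostdc1), while 20.3% of all tested genes did. KO against WT with vehicle gave 0 of 9 in F, where 4.96% of all genes were called, 0 of 9 in M (0.516% called) and 0 of 9 in the average of both letters (6.67% called). With CP2 the same comparison gave 0 of 9 in F (2% called), 0 of 9 in M (9.99%) and 0 of 9 in the average (11.6%). CP2 against vehicle in KO gave 0 of 9 in F (0.0859% called), M (5.1%) and the average (3.91%). In WT no gene at all was called for CP2 (0% in F, M and the average). Tests of the genotype by CP2 interaction called 0 of 9 in F (0%), M (1.98%) and the average (0.715%). M against F also called 0 of 9 (10.3% called). Before adjustment, p lay under 0.05 for 1 member in KO against WT with CP2 in F, for 2 in CP2 against vehicle in KO M, and for 3 in the F minus M difference of that CP2 effect. It did so for 0 in the other comparisons.

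The estimates were wide rather than near 0. Averaged over the letters with vehicle, KO minus WT had a median of -0.11 over the members on the log2 scale, from -0.65 for Kcnj13 to 0.20, with a median standard error of 0.40 against 0.19 over all genes. With CP2 the median was 0.09 (range -0.33 to 0.18). In F with CP2, all 9 members were lower in KO (median -0.37, range -0.85 to -0.30, adjusted p 0.312 to 0.853). In M with CP2, all 9 were higher in KO (median 0.52, range 0.19 to 0.70, adjusted p 0.446 to 0.830). Within KO, CP2 minus vehicle had a median of -0.34 in F (9 of 9 lower) and 0.96 in M (9 of 9 higher, range 0.86 to 1.14, adjusted p 0.193 to 0.475). With the percentage of reads outside genes as covariate this last median became 1.77. Because the members deviate together, 9 of 9 in a direction is close to a single observation and was not tested as a count. The all-gene medians of these 4 comparisons lay within 0.02 of 0.

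The difference between F and M in the CP2 effect in KO had a median of -1.32 (range -1.68 to -1.12) and 0 of 9 called (0.691% of genes called). For KO minus WT under CP2, the F minus M difference had a median of -1.05 (range -1.10 to -0.71), again with 0 of 9 called (0.82%). With vehicle it was 0.20 and 0 of 9 (0.102%), and for CP2 in WT it was -0.25 and 0 of 9 (0%). In KO M, where the members were higher with CP2, 7 of 15 ependymal genes rose (Foxj1, Ccdc153, Tmem212, Rarres2, Rsph1, Hydin and Mia), with a median of 1.13 over the list, where 5.1% of all genes were called. Reads outside annotated genes made up 7.33% ± 1.40 of all reads in KO CP2 M (SD, n = 5) and 12.1% ± 0.885 in KO vehicle M (SD, n = 3). In KO against WT under CP2 in M, 5 of 15 meningeal genes rose (Col1a1, Col1a2, Col3a1, Lum and Islr, median 0.64) and 0 of 15 ependymal genes (median 0.50), where 9.99% of all genes were called. The part of these markers in the members' differences was not tested.

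These estimates turned on a few libraries. L201 and L298 stood apart in the members themselves, and L291 stood apart in Xist, so the tests were repeated without these 3, a choice made after seeing the data and in part on the members' own values. The p-values that follow therefore come from samples chosen on the outcome and are given as description. Among the remaining 33 libraries, 8 of 9 members passed the test for any group difference, all but Sostdc1 (adjusted p 0.00394 to 0.115, 21.4% of genes called). In KO against WT with CP2 in F, 2 of 9 were lower in KO (0.852% called), namely Kcnj13 with -1.51 (adjusted p 0.0200) and Kl with -1.41 (adjusted p 0.0495), and the median of the members was -1.27. For CP2 in KO M, 3 of 9 were higher (6.8% called), namely Kcnj13 (1.34), Clic6 (1.28) and Otx2 (1.03), with a median of 1.22. The F minus M difference of that CP2 effect was called for 7 of 9 (1.07% called), all but Kl and Sostdc1, with a median of -2.40. For KO minus WT under CP2 it was called for 5 of 9 (0.935% called), namely Ttr, Folr1, Aqp1, Kcnj13 and Clic6, with a median of -1.90. CP2 against vehicle in KO F had a median of -1.20 and 0 of 9 called (0.693% called). Leaving out L201 alone gave medians of -1.26 for KO minus WT with CP2 in F and -1.21 for CP2 minus vehicle in KO F, with 0 of 9 called in both (0.747% and 0.413% of genes called). In that fit 1 of 9 members, Kcnj13, passed the test for any group difference (adjusted p = 0.0278, 21.7% of genes called).

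To set the shared deviation apart from differences of single genes, each member was refitted with the mean log2 CPM of the other 8 members as a covariate, and p-values were adjusted over all genes. The slope on this covariate was 0.61 for Otx2, 0.77 for Kcnj13, 0.90 for Kl, 0.95 for Clic6, 1.04 for Sostdc1, 1.09 for Aqp1, 1.14 for Ttr, 1.18 for Folr1 and 1.24 for Slc4a5 (standard errors 0.038 to 0.065). A slope of 1 would mean that a gene moves exactly with the others, and the slopes of Otx2, Kcnj13 and Kl lay below 1 by more than 2 standard errors, while those of Ttr, Folr1 and Slc4a5 lay above it by more than 2. Standard errors fell by this step, for Kcnj13 with vehicle from 0.34 to 0.13. Each covariate is built from the other members, so their adjusted values depend on each other: a gene that is higher pushes the others lower. This fit describes a member relative to the rest and says nothing of the tissue as a whole.

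Kcnj13 fell in KO relative to the other members. With vehicle, averaged over F and M, the difference was -0.57 (SE 0.130, adjusted p = 0.00541), where 7.07% of all genes were called in the same fit. Without the covariate the difference was -0.65 (SE 0.34, adjusted p = 0.268). The letters gave -0.48 in F (SE 0.157, adjusted p = 0.0639) and -0.66 in M (SE 0.206, adjusted p = 0.123), and their difference did not pass (adjusted p = 0.931). With CP2 the average was -0.32 (SE 0.112, adjusted p = 0.0582), with -0.51 in F (adjusted p = 0.0808) and -0.13 in M (adjusted p = 0.689). The test of whether the knockout difference depended on CP2 gave 0.25 (SE 0.171, adjusted p = 0.502), so the values with vehicle and with CP2 were not shown to differ.

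The values behind this were as follows. Kcnj13 had 6.92, 6.88, 4.68, 3.16 and 6.31 CPM in KO vehicle F and 12.1, 9.19, 5.92, 7.67 and 5.46 CPM in WT vehicle F, with overlap. In M with vehicle it had 4.30, 2.94 and 3.78 CPM in KO and 4.80, 6.91 and 6.93 CPM in WT, without overlap. Kcnj13 was the 1 of 9 members whose raw levels did not overlap in that comparison, where 20.9% of all tested genes did not overlap either, and in the other 7 comparisons within a letter it was 0 of 9 (0.605% to 15.3% of genes). Taken as log2 CPM minus the mean of the other 8, Kcnj13 lay at -1.86, -2.88, -2.48, -2.65 and -2.03 in KO vehicle F. It lay at -1.80, -2.02, -1.47, -1.95 and -2.19 in WT vehicle F, so that 3 of the 5 knockouts were below every wild type. In M with vehicle it lay at -2.10, -2.10 and -2.38 in KO against -1.50, -1.57 and -1.62 in WT, without overlap. Slc4a5 with vehicle in F, and Kcnj13 and Clic6 with vehicle in M, were the members whose relative levels did not overlap between KO and WT. Of the other tested genes, taken relative to the mean of the 9 members, 0.797% and 8.92% did not overlap in those 2 comparisons. With CP2 in F it lay at -2.31, -2.17, -2.22, -2.16 and -1.97 in KO and at -2.08, -1.83, -1.56, -1.79 and -1.81 in WT. Here 4 of the 5 knockouts were below every wild type. With CP2 in M, KO had -2.11, -2.09, -1.84, -0.90 and -2.35 and WT had -1.74, -1.79, -1.45, -1.67 and -1.81. L298 had the highest relative Kcnj13 level of the series, and the 4 other knockouts lay below all 5 wild types. Kcnj13 was called in each of the 36 fits that left out 1 library (-0.64 to -0.52, adjusted p at most 0.0275) and with the percentage of reads outside genes added as a second covariate (-0.62, adjusted p = 0.0287). Without a covariate, 3 of 15 ependymal genes fell in the same comparison (Rarres2, Rsph1 and Mia; 6.67% of all genes called), with a median of -0.61 over that list, and their part in the Kcnj13 result was not tested. Reads outside genes made up 9.24% ± 2.56 of all reads in the vehicle-treated F knockouts and 5.99% ± 0.740 in their wild-type counterparts (SD, n = 5 each).

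Slc4a5 rose in KO with vehicle relative to the other members. Its average difference was 0.46 higher in KO (SE 0.119, adjusted p = 0.0133), with 7% of genes called in that fit, 0.40 in F (SE 0.143, adjusted p = 0.0928) and 0.53 in M (SE 0.189, adjusted p = 0.189). With CP2 the average was close to 0 (adjusted p = 0.999), from 0.23 in F (SE 0.150, adjusted p = 0.465) and -0.23 in M (SE 0.147, adjusted p = 0.347), and the F minus M difference of 0.47 did not pass (SE 0.215, adjusted p = 0.302). The dependence of its knockout difference on CP2 was -0.46 (SE 0.156, adjusted p = 0.129), so the values with vehicle and with CP2 were not shown to differ, and CP2 minus vehicle in KO gave -0.32 (SE 0.111, adjusted p = 0.0910). The levels themselves were 13.4, 24.0, 15.0, 9.66 and 13.1 CPM in KO vehicle F and 17.6, 17.5, 5.44, 13.9 and 11.3 CPM in WT vehicle F, which overlap. Relative to the other 8 members Slc4a5 lay at -0.79, -0.85, -0.60, -0.85 and -0.84 in KO vehicle F and at -1.21, -0.98, -1.61, -0.99 and -1.01 in WT vehicle F, without overlap. In M with vehicle, KO had 8.83, 5.14 and 9.58 CPM and WT 3.90, 7.29 and 9.18 CPM, and the relative levels were -0.94, -1.21 and -0.88 against -1.83, -1.49 and -1.16, with an overlap between L319 and L303. This result was less firm than that of Kcnj13. It was lost when WT vehicle M L285 was left out (0.40, adjusted p = 0.0643), with the median of the other members as covariate (0.23, adjusted p = 0.421), and with the percentage of reads outside genes added (0.42, adjusted p = 0.142).

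Kl passed with CP2, where 1 of 9 members against 12.3% of all genes is near the background and is no result about the members. Averaged over F and M, KO minus WT was -0.22 with CP2 (SE 0.0726, adjusted p = 0.0443) and -0.19 with vehicle (SE 0.0831, adjusted p = 0.152). The 2 treatments were not shown to differ (difference -0.02, SE 0.110, adjusted p = 0.951). In F with CP2, KO minus WT was -0.31 (adjusted p = 0.110) and in M -0.13 (adjusted p = 0.488). Kl had 96.0, 27.1, 21.4, 29.1 and 29.4 CPM in KO CP2 F against 44.6, 129, 46.8, 81.9 and 50.8 CPM in WT CP2 F. All knockouts but L201 lay below every wild type. Relative to the other 8 the levels were 1.09, 1.25, 1.001, 1.66 and 1.62 in KO and 1.35, 1.65, 1.62, 1.60 and 1.67 in WT, so that 3 of the 5 knockouts stayed below the wild types and 2 lay among them. In M, Kl had 52.1, 92.0, 100.5, 11.8 and 62.4 CPM in KO CP2 and 31.8, 50.4, 55.0, 74.6 and 47.5 CPM in WT CP2, with relative levels of 1.28, 1.44, 1.33, 1.80 and 1.15 against 1.32, 1.64, 1.66, 1.46 and 1.62. The call was lost in 15 of the 36 fits that left out 1 library (adjusted p up to 0.102). It was also lost without Ttr in the covariate (-0.20, adjusted p = 0.0709), with the second covariate (adjusted p = 0.0637), and without the 3 libraries (adjusted p = 0.0537).

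**Figure D3:**
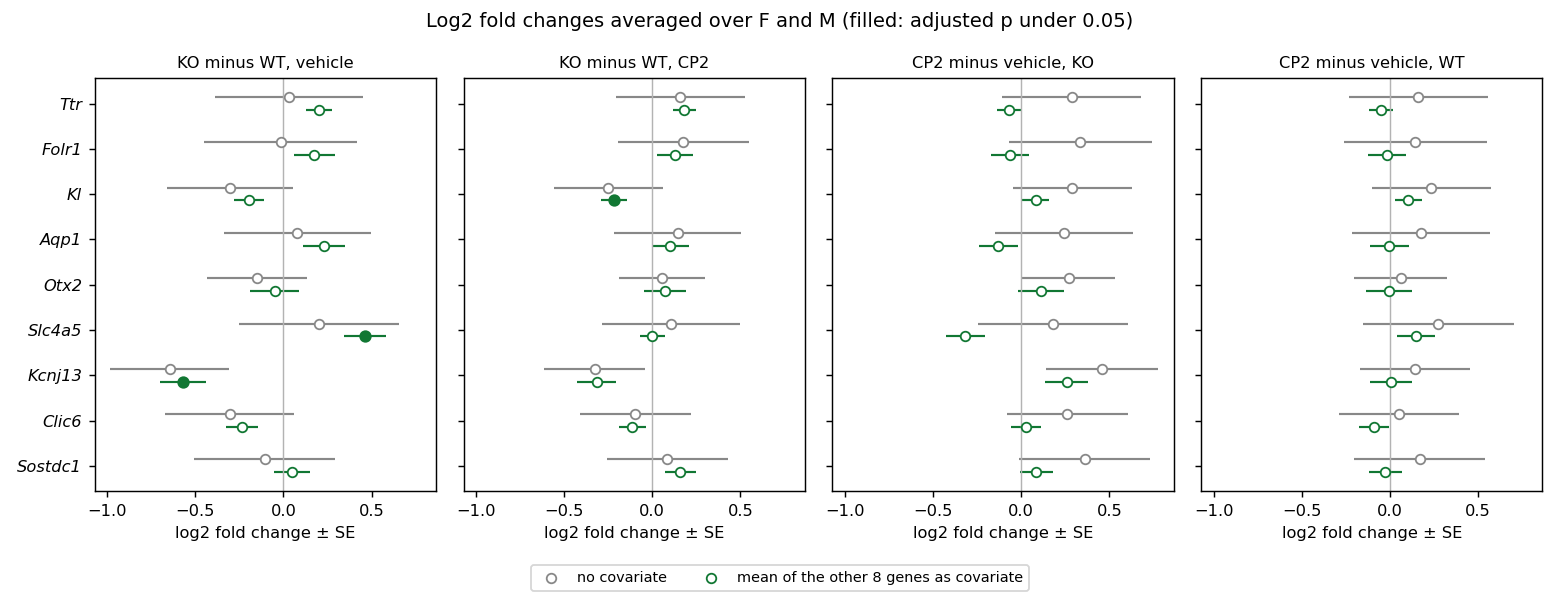
Log2 fold change of each member with its standard error in 4 comparisons averaged over F and M, without a covariate in grey and with the mean of the other 8 genes as covariate in green, filled where the adjusted p is under 0.05. Intervals narrow with the covariate, and Kcnj13 with vehicle (-0.57), Slc4a5 with vehicle (0.46) and Kl with CP2 (-0.22) are the values that passed.

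The remaining 6 members did not pass for KO against WT. Ttr was 0.20 higher in KO with vehicle (SE 0.0736, adjusted p = 0.0870) and 0.18 with CP2 (SE 0.0645, adjusted p = 0.0581). Clic6 had -0.23 with vehicle (SE 0.0905, adjusted p = 0.106) and -0.11 with CP2. Folr1 had 0.18 and 0.13, Aqp1 0.23 and 0.10, Otx2 -0.05 and 0.07 and Sostdc1 0.05 and 0.16 with vehicle and CP2. Within a single letter, 0 of 9 members were called between KO and WT with the covariate. A like fit, with the mean of all 9 members as covariate, called 5.31% of all genes with vehicle in F, 0.57% in M, 2.54% with CP2 in F and 10.1% in M. For CP2 against vehicle, 0 of 9 were called in KO (0.0898% of genes in F, 4.47% in M and 4.29% for the average) and in WT (0% in each). M against F had 0 of 9 as well (10.2%), and so did the genotype by CP2 interaction (0.855%).

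**Figure D4:**
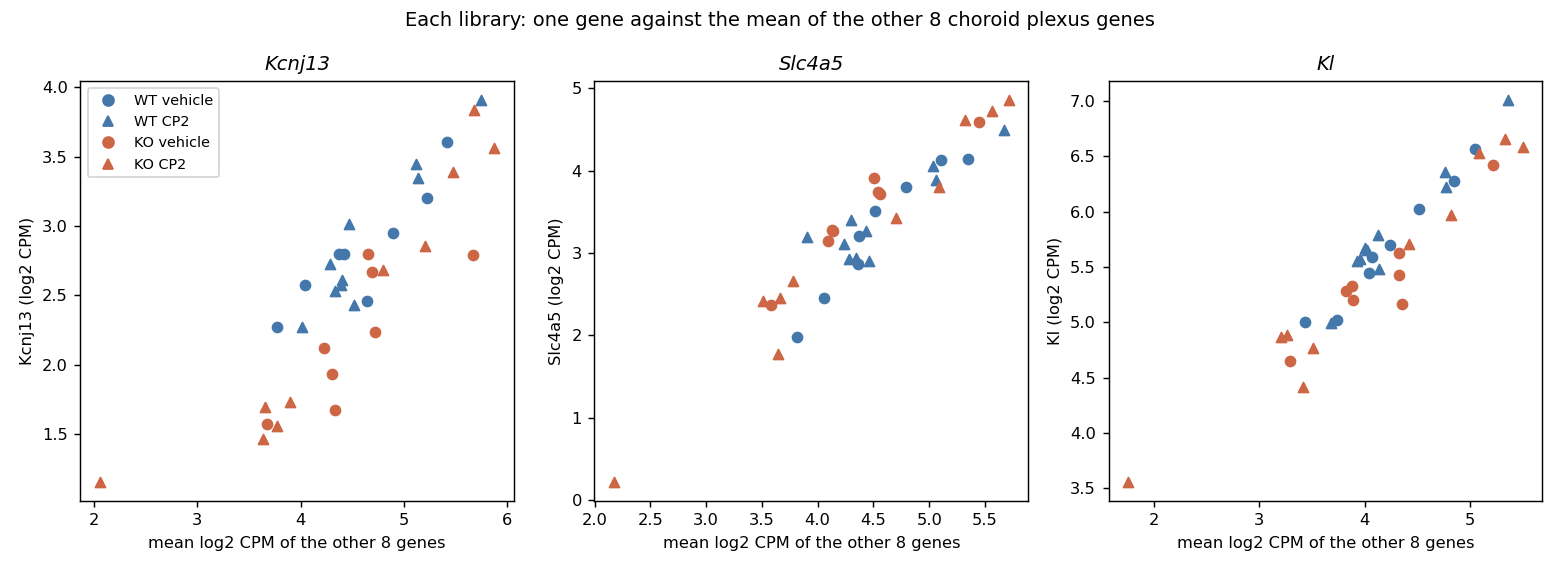
Log2 CPM of Kcnj13, Slc4a5 and Kl (vertical) against the mean log2 CPM of the other 8 members (horizontal), with 1 point per library. At a like level of the others, KO vehicle libraries (orange circles) lie mostly below WT vehicle libraries (blue circles) for Kcnj13 and above them for Slc4a5, and L298 lies alone at the lower left.

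A list of 32 further choroid plexus genes was fitted with the mean of the 9 members as covariate. Of these, 21 correlated with the members above 0.8 over the 36 libraries, as did 14 (0.0548%) of the 25560 tested genes outside both lists. The list was chosen with earlier results of these data known, so this contrast is given as description. The 12 genes closest to the mean of the members by Pearson's r were F5 (0.971), 1500015O10Rik (0.970), Enpp2 (0.967), Mfrp (0.951), Tmem72 (0.946), Trpv4 (0.936), Slc2a12 (0.933), Cldn2 (0.929), Kcne2 (0.927), Abca4 (0.908), Lbp (0.903) and Wdr86 (0.899). All but Slc2a12 and Lbp belong to that list of 32. Rbp4 (slope 0.03 on the members) and Slc29a4 (0.17) hardly followed the members, while F5 followed with a slope of 1.22. Of the genes called below, Cab39l (0.34), Igfbp2 (0.39), Rdh5 (0.55), Ace (0.60) and Prlr (0.61) had the lowest slopes. The other called genes ran from 0.66 (Lmx1a) to 1.22 (F5). A difference in a gene that follows the members weakly need not lie in the epithelium, and the part of other cells was not tested.

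With vehicle, 7 of the 32 differed between KO and WT relative to the members, where 7.02% of all genes were called. Of these, 6 fell. Igfbp2, a binding protein of insulin-like growth factors, fell by 0.65 (adjusted p = 0.00306), Calml4 fell by 0.67 (adjusted p = 0.00889) and the retinol dehydrogenase Rdh5 fell by 0.53 (adjusted p = 0.0195). The prolactin receptor Prlr fell by 0.47 (adjusted p = 0.0248), the potassium channel subunit Kcne2 fell by 0.51 (adjusted p = 0.0441) and the tight junction protein Cldn2 fell by 0.40 (adjusted p = 0.0449). Ace, the angiotensin-converting enzyme, rose by 0.28 (adjusted p = 0.0290), a call that was lost with Kcnj13, Slc4a5 and Kl left out of the covariate (0.25, adjusted p = 0.0602). With vehicle in F, Igfbp2 lay at 48.6 ± 6.40 CPM in knockouts against 67.8 ± 8.71 in wild types (SD, n = 5 each). In M it lay at 37.0 ± 7.67 against 69.4 ± 4.79 CPM (SD, n = 3 each), and it was the 1 gene of the 32 that also passed without the covariate (-0.69). Igfbp2 is not made by the plexus alone. With the percentage of reads outside genes added as a second covariate 0 of the 7 passed, and 0.984% of all genes were then called. The differences were then -0.58 for Igfbp2, -0.57 for Rdh5, -0.53 for Calml4 and -0.51 for Prlr, with standard errors of 0.154 to 0.181. They were -0.31 for Cldn2, -0.24 for Kcne2 and 0.11 for Ace, which are smaller than without it.

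With CP2, 6 of the 32 differed, where 12.2% of all genes were called. This count is not far above that share and is not read as a result about the list. Tmem72, a transmembrane protein, fell by 0.54 in KO (SE 0.0885, adjusted p = 5.55e-05), and Cldn2 fell by 0.58 (SE 0.110, adjusted p = 0.000348). Prlr fell by 0.56 (adjusted p = 0.00106), Mfrp fell by 0.42 (adjusted p = 0.000717) and F5, coagulation factor V, fell by 0.32 (adjusted p = 0.00650). Steap1, of a family of metal reductases, rose by 0.70 (SE 0.143, adjusted p = 0.000774). Relative to the members, Tmem72, Cldn2, Mfrp and Steap1 did not overlap between genotypes in F with CP2, 4 of the 32, where 1.34% of the other tested genes did not overlap either. In M with CP2 it was 1 of the 32, Tmem72 (0.145%). In CPM, Cldn2 had 4.61 ± 4.36 (SD, n = 5) in KO CP2 F and 9.34 ± 4.06 (SD, n = 5) in WT CP2 F, and Steap1 3.27 ± 2.77 and 2.57 ± 1.72 in the same groups. Without the covariate 0 of the 32 passed with CP2. In single letters, 3 of the 32 rose in F with vehicle (Ace, Abca4 and Lmx1a, 5.31% of genes called) and 0 were called in M (0.57%). With CP2, Prlr and Tmem72 fell and Steap1 rose in F (2.54%), and in M Cldn2, Tmem72, Mfrp and F5 fell and Ace and Cab39l rose (10.1%). The count in M with CP2 is likewise not read as a result about the list. Averaged over F and M with CP2, the 6 genes Tmem72, Cldn2, Prlr, Mfrp, F5 and Steap1 were called under all 4 alternative settings. Those settings were not run for the single letters. In all, 9 of the 32 were called with the second covariate (12.4% of genes called), 6 with other size factors (12.3%), 6 with 3 libraries left out (9.72%), and 8 with Kcnj13, Slc4a5 and Kl left out of the covariate (12.2%). Cldn2 and Prlr were the genes of the list called with both vehicle and CP2. For CP2 against vehicle in KO, Calml4 rose by 0.57 relative to the members, the 1 gene of 32 called there (adjusted p = 0.0268, 4.29% of genes called). That count is near the background and is no result about the list. Calml4 was also the 1 gene of 32 whose knockout difference depended on CP2 (0.87, adjusted p = 0.0346, 0.855% of genes called).

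**Figure D5:**
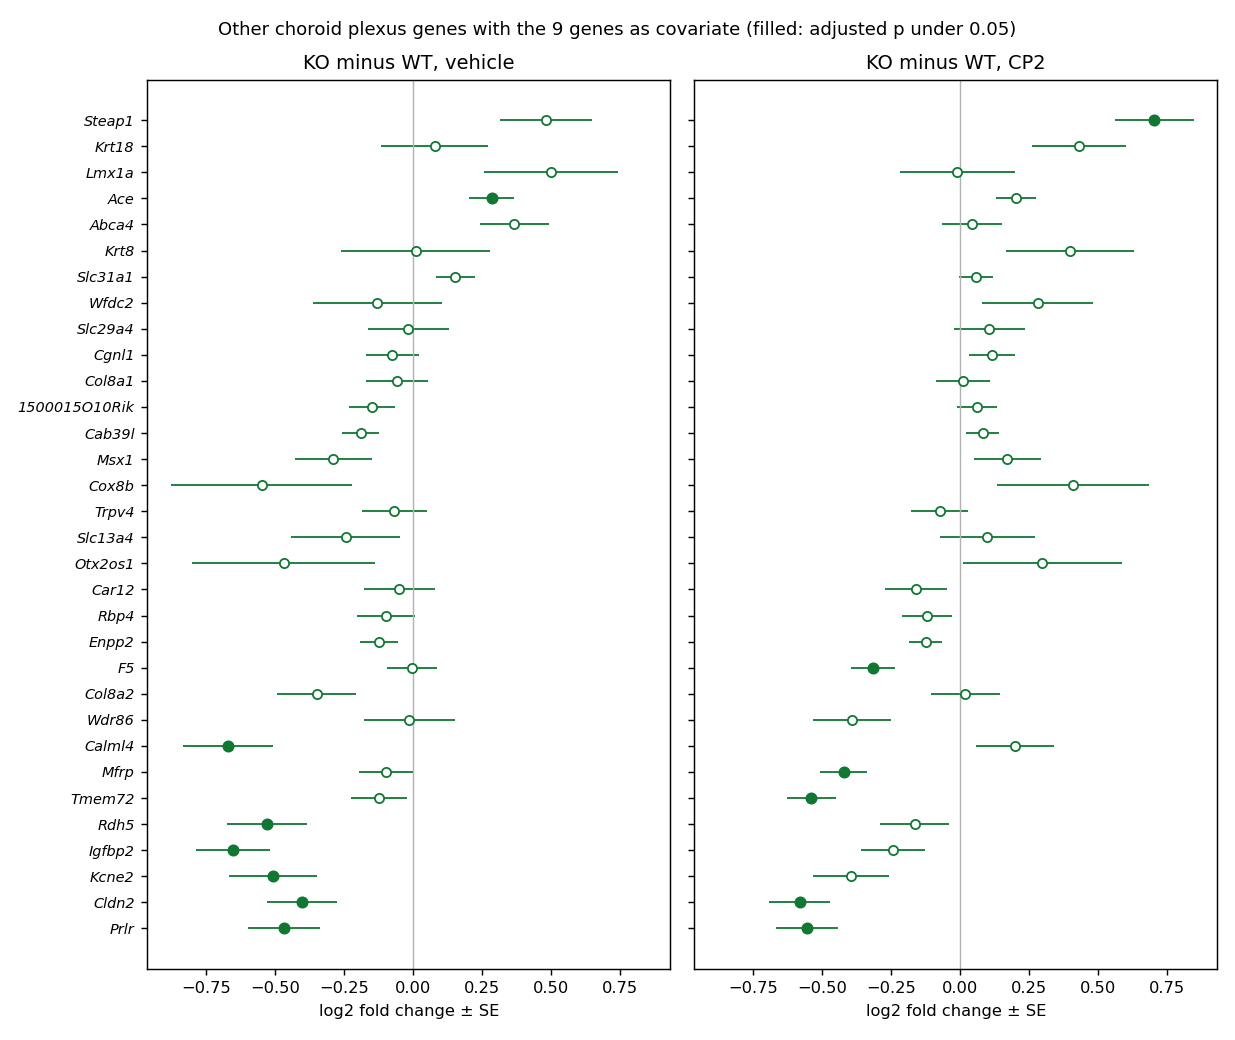
KO minus WT in log2 fold change with its standard error for the 32 further choroid plexus genes, with the mean of the 9 members as covariate, with vehicle and with CP2. Cldn2 and Prlr lie below 0 under both treatments, and Steap1 lies above 0 with CP2 (0.70).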

How the data were processed

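The authors' deposited table holds raw counts per Ensembl gene for 36 libraries. Per the labels' protocols, a Trizol-based kit gave total RNA, from which polyA-enriched Illumina TruSeq libraries were made. STAR, HTSeq and GRCm39 are named in the submitters' processing notes. The annotation release and the use of strand are not given in the sources used here, so overlapping and antisense genes are uncertain. The HTSeq summary lines gave the share of reads outside genes and were left out of library sizes. Symbols (52073 of 56980 rows) and exon lengths came from GENCODE M21.

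Group comparisons used edgeR 4.0.16 in R 4.3.3 (TMM, filterByExpr, estimateDisp, robust glmQLFit, glmQLFTest). The main fit held all 36 libraries with a coefficient per group, and each covariate or leave-out setting was a fit of its own. Adjusted p-values are by Benjamini-Hochberg over the tested genes within each comparison, and genes were called at 0.05. The tested genes were 25601 in the main fit, 25249 without L201, L291 and L298, and 25443 without L201 alone. Relations with Ttr were tested by permutation and adjusted over 8 relations. DESeq2 1.42.0 was an alternative. CPM used TMM library sizes, and log2 CPM a prior count of 2. Covariate fits are described with their results. Promoters came from RefSeq. Named were all members, the further choroid plexus genes called in a comparison, and the 12 genes most like the members; of other lists, called genes are named beside a result, a choice made after their values were seen. The methods were tested on simulated data. The members and lists were chosen with earlier results of these data known. Nothing was printed for the upstream sequence of Ttr.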

Additional observations from a re-analysis of the deposited data

Results flagged for a closer look

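Of 54 sets of a member and a group of 5 libraries, 16 had 1 library far from the other 4. The measure was the gap to the nearest library as a share of the whole range of the group (0.711 to 0.876). Chance marks about 1 in 20 such sets, and the members share their deviations, so these are not separate events. KO CP2 F L201 was high in 7 members: in log2 CPM, Ttr was at 11.67, Folr1 at 4.68, Kl at 6.59, Aqp1 at 4.75, Slc4a5 at 4.86, Kcnj13 at 3.56 and Sostdc1 at 4.47. KO CP2 M L298 was low in 7 members: Ttr was at 7.45, Folr1 at 0.081, Aqp1 at 0.45, Otx2 at 1.68, Slc4a5 at 0.22, Clic6 at 2.31 and Sostdc1 at 0.72. Folr1 was low in WT vehicle F L278, at 2.19, and high in WT CP2 M L267, at 3.65.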

How the results depend on the processing

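Leaving out L201, L291 and L298, a choice made in part on the members' own values, raised the number of members called from 0. It was then 8 for any group difference (21.4% of genes called) and 2 for KO minus WT with CP2 in F (0.852%). For CP2 minus vehicle in KO M it was 3 (6.8%). The F minus M difference was called for 5 in KO minus WT with CP2 (0.935%) and for 7 in CP2 minus vehicle in KO (1.07%). The median of the members became -1.27 for KO minus WT with CP2 in F and -1.20 for CP2 minus vehicle in KO F. Leaving out 1 library at a time gave 0 to 1 members for any group difference, the 1 being without L201 (21.7% of genes called). It gave medians of -1.26 to -0.073 and -1.21 to -0.085 in those 2 comparisons. The median for CP2 minus vehicle in KO M became 1.77 with the percentage of reads outside genes as covariate and -0.089 with the other members as covariate, which holds it near 0 by construction. That covariate raised the members called for KO minus WT from 0 to 2 with vehicle (7% and 7.07% of genes called) and to 1 with CP2 (12.3%).

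Among the covariate fits, the median of the other members in place of their mean called 2 for KO minus WT with vehicle in F (0 with the mean), 1 with CP2 in F (0) and 2 with CP2 averaged (1). That percentage as second covariate called 1 with vehicle (2) and 0 with CP2 (1). Leaving Ttr out of the covariate called 0 with CP2, and DESeq2 called 3 with CP2 and 1 for CP2 minus vehicle in KO (0). The shares of all genes called in these alternative fits are not given here. In the main fit with the 9 members as covariate, 5.31% passed with vehicle in F and 2.54% with CP2 in F. Averaged over the letters, 7.02% passed with vehicle, 12.2% with CP2 and 4.29% for CP2 minus vehicle in KO. Because the shares of the alternative fits themselves are not given, their counts are not read as a result about the members. Of the 32 further choroid plexus genes, 1 with vehicle (6.67% of genes called) and 0 with CP2 (11.6%) were called without a covariate. With the second covariate, 0 were called with vehicle (0.984%). The cause was not tested. With DESeq2, its size factors, another filter on low counts or none, the 2 groups alone or the row ENSMUSG00000119584 left out, 113 counts of members called and 73 medians stayed and 0 moved. With single libraries left out, 1 count and 2 medians moved, and the median changed sign in 6 of 13 comparisons, as for KO minus WT with vehicle in F (-0.297 to 0.129). No paired analysis was possible because each library number occurs in 1 group only. Groups held 3 to 5 libraries, with within-group SDs of 0.57 to 0.96 for the members; the effect of depth was not tested.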
